A study of Mus musculus with 20 samples.

Results

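Mouse fibroblasts that lack heat shock factor 1 (HSF1 -/-, called KO here) were followed through the first 2 h of a heat shock. The arrays described are the 3 KO arrays labelled 0.5, 1 and 2 h of heat shock and the 3 KO arrays labelled 0 h, chosen by these labels, 6 of 20 in all. Fibroblasts with the gene (HSF1 +/+, WT) were measured in the same way, with 1 array each at 0.5, 1 and 2 h and 3 arrays at 0 h, and 4 later arrays of each genotype entered the fit that estimates the spread. Every array compared 2 RNAs: the sample in Cy5, and in Cy3 a shared pool of fibroblast mRNA, part of it from cells heated for 1 h and part from unheated cells. Whether the cells stayed in the heat until harvest, the temperature, and how the KO line was derived are not given in the sources used here. Any other difference between the 2 cell lines cannot be told apart from the loss of HSF1.

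HSF1 is the transcription factor that mammalian cells activate when heat unfolds proteins: it forms trimers, binds repeats of the unit GAA and its complement TTC in promoters, and switches on chaperone genes. Chaperones hold and refold damaged proteins. Heat also reaches cells through other routes, among them the MAP kinases, which switch on immediate early genes within minutes, and the kinases that slow translation in the integrated stress response. What a cell without HSF1 still does in its first hours of heat is the question these arrays address.

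Values are log ratios of sample over pool, taken as log2, with each array centred on its median, and a gene is given relative to the mean of its own genotype's 0 h arrays. A value of 1 thus stands for a 2-fold higher level than in unheated cells of that genotype. The log base and the direction of the ratio are not stated in the sources used here. A base of 10 does not go with the largest absolute value, 10.2, since 16-bit signals allow at most 4.82. With natural logarithms, folds would be larger than those given. The direction is likely sample over pool: WT Hspa1a, a textbook heat shock gene, stood at 0.58, 4.55 and 5.80 at 0.5, 1 and 2 h. Ratios to a pool of similar cells hold no absolute level, so the label fibroblast could not be checked by level, although 16 of 20 fibroblast markers were measured. Hsf1 and Hsf2 had 0 probes of their own among the named probes, so the deletion itself was not analysed here. Separate cultures for the 0 h arrays are not named in the labels, and the spread behind the p-values may therefore be technical. The heated arrays are 3 different times, not replicates.

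The promoters of 3 genes are shown as examples of windows with and without facing GAA units, the letters that HSF1 binds. They are RefSeq windows of assembly GRCm38.p6, each of 250 bases before to 50 bases after the transcription start, 5′ to 3′ on the gene's strand. Capitals mark 2 adjacent facing units, GAANNTTC or TTCNNGAA, which read the same on both strands. Hspa1a, the inducible HSP70 chaperone, lies at chr17:34972107-34972406 on the minus strand and has 1 such pair, which starts 104 bases before the start site. Hsph1, the HSP110 exchange factor of HSP70, lies at chr5:149636287-149636586 on the minus strand. It has 3 matches, 1 of which starts 33 bases before the start site. The other 2 lie after the start site, from bases 37 and 42. These 2 overlap and together spell TTCNNGAANNTTC, a heat shock element of 3 units. A second Hsph1 window, from chr5:149636266, holds the same matches and is not shown. Gadd45b, an immediate early gene of the growth arrest family, lies at chr10:80929841-80930140 on the plus strand and has 0 matches.
Hspa1a: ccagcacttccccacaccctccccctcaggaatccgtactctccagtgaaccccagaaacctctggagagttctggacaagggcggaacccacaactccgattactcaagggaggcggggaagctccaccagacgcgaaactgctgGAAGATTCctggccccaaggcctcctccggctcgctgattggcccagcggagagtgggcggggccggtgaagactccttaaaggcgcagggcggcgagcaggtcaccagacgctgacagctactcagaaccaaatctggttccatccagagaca
Hsph1: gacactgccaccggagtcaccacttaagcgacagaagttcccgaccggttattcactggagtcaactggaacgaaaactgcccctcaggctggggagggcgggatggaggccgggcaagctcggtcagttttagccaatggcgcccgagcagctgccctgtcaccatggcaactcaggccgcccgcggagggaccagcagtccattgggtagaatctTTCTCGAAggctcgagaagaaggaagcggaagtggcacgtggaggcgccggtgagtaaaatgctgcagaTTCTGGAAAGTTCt
Gadd45b: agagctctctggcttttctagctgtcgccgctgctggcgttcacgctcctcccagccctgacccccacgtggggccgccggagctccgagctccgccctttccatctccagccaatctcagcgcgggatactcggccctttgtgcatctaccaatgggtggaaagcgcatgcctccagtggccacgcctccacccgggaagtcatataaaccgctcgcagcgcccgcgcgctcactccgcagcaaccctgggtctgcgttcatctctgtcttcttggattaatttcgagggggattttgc
A gene was counted if any of its windows held the letters, and the lists were limited to tested genes. A 3-unit element, GAANNTTCNNGAA or TTCNNGAANNTTC, was present in 3 of 32 chaperone genes (9.38%: Chordc1, Dnajb6 and Hsph1) and in 0 of 30 immediate early genes. The background was 45 of 8572 tested genes (0.525%) and 179 of 27025 genes in all (0.662%). The 2-unit pair was present in 13 of 32 chaperone genes (40.6%), 3 of 30 immediate early genes (10%: Ccn1, Fosl2 and Jun) and 5 of 49 ribosomal protein genes (10.2%). For the pair the background was 1211 of 8572 tested genes (14.1%) and 4587 of 27025 in all (17%). Most chaperone genes, Hspa1a among them, thus lacked the 3-unit element in these windows, and some immediate early genes held the pair. Letters in a window are a description and not a measured binding site.

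In KO cells the cytosolic chaperones had a median of -0.00 over the joined times. At an unadjusted p under 0.05, 0 of 38 were higher, against 2.34% of all genes. No single gene passed the adjusted test over these times, and of the gene lists used here the immediate early genes had the highest median. The joined contrast set the 3 heated KO arrays against the 3 KO 0 h arrays with limma over 10625 genes, and 0 genes had an adjusted p under 0.05 (0%, lowest adjusted p 0.247). At an unadjusted p under 0.05, 793 genes differed (7.46%): 249 were higher (2.34%) and 544 lower (5.12%) in heated KO cells. Of 10315 genes with all 6 values, 463 (4.49%) had all heated arrays above all 0 h arrays and 923 (8.95%) had all of them below. The median over all genes was -0.05.

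Cytosolic chaperones and co-chaperones were measured for 38 of 47 listed genes. Their median difference in heated KO cells was -0.00, and 19 of 38 lay above 0. By array the median of the list was -0.01, 0.05 and -0.06 in KO cells at 0.5, 1 and 2 h, and 0.13, -0.09 and 0.00 on the KO 0 h arrays. In WT cells it stood at 0.04, 0.17 and 0.28. At an unadjusted p under 0.05, 0 members were higher and 1 was lower, against 2.34% and 5.12% of all genes. Whether such small counts depart from those shares was not tested. The lower member was the HSP70 exchange factor Hspbp1. Its values were -2.77, -0.50 and -0.24 at 0.5, 1 and 2 h, so the difference rests on the 0.5 h array.

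Hspa1a had 0.24, 0.66 and 0.16 in KO cells at 0.5, 1 and 2 h, and -0.16, -0.06 and 0.23 on the 3 KO 0 h arrays. The groups overlapped, and the difference was 0.35 ± 0.80 (SE; limma adjusted p = 0.958). That SE also takes in the spread of the WT times, over which Hspa1a moved widely. Hspa1b, its near-identical neighbour whose probes may bind both transcripts, had -0.34, -0.46 and -0.59 in heated KO cells, against 0.13, -0.18 and 0.05 on the KO 0 h arrays. All heated values lay below all 0 h values, by a mean of -0.46 ± 0.70 (SE; limma adjusted p = 0.924). In WT cells it had 0.69, 4.03 and 4.98.

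Other chaperones that stood high in WT cells at 2 h lay lower in KO cells at that time. Dnajb1, the HSP40 that feeds clients to HSP70, had 0.38, 0.28 and -0.19 in KO cells, against 1.16, 2.06 and 2.14 in WT cells at the same times. Hsph1 had -0.14, 0.28 and -0.08 in KO cells, against -0.51, 1.30 and 1.94 in WT cells. Hspb1, the small heat shock protein HSP27, had 0.18, -0.62 and -0.09 in KO cells, against 0.14, 1.51 and 1.82 in WT cells. For all 3 genes the WT values at 1 and 2 h lay above every KO value. Dnajb4, another HSP40, had 0.52, 0.56 and 0.37 in KO cells, all above the KO 0 h arrays, and 0.03, 1.18 and 1.62 in WT cells. Hsp90aa1, the inducible HSP90, had 0.31, 0.22 and 0.27 in KO cells, against 0.05, 0.51 and 1.04 in WT cells. Bag3, a co-chaperone of selective autophagy, had -0.18, 0.14 and -1.77 in KO cells, against 0.29, 0.03 and 1.55 in WT cells. Bag3 also varied widely in unheated WT cells, at -1.12, 0.96 and 0.16 on the WT 0 h arrays. At 2 h it was the single chaperone with an unadjusted p under 0.05 in KO cells (limma adjusted p = 0.561).

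**Figure D1:**
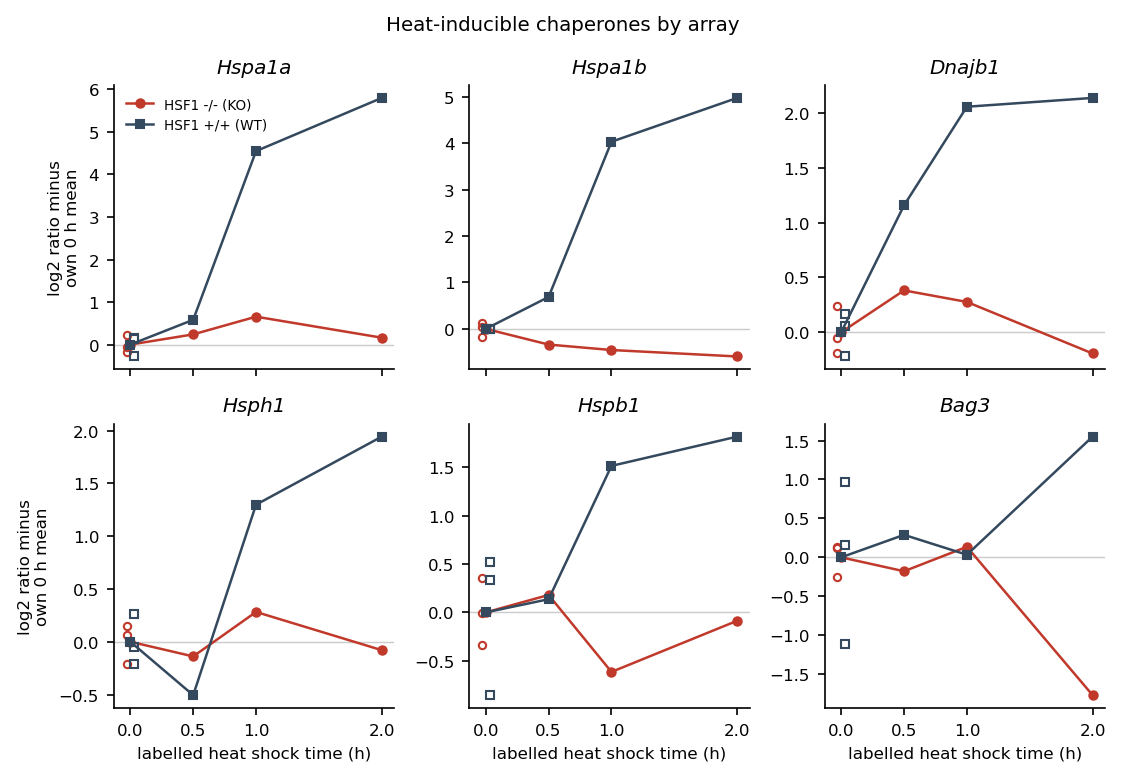
Log2 ratio to the pool minus the mean of the genotype's own 0 h arrays (vertical axis) against labelled heat shock time in hours, for 6 chaperone genes. Red circles are KO cells and dark squares WT cells, open symbols are the single 0 h arrays and the line starts at their mean. KO Hspa1a stays between 0.16 and 0.66 after 0 h, while WT Hspa1a reaches 5.80 at 2 h.

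Constitutive and organelle chaperones and some other stress genes had mean differences near 0 in KO cells as well. Hspa8, the constitutive HSC70, differed by -0.11 ± 0.21 (SE). Hspd1 and Hspe1, the mitochondrial HSP60 and HSP10, differed by 0.08 ± 0.19 and 0.08 ± 0.24, and Hspa5, the ER chaperone BiP, by 0.05 ± 0.20. These are means over probes, which spanned -0.45 to 0.04 for Hspa8, -0.67 to 0.36 for Hspd1, -0.43 to 0.45 for Hspe1 and -0.03 to 0.19 for Hspa5. Cryab, a small heat shock protein, differed by -0.04 ± 0.18, Hmox1, the haem oxygenase, by -0.04 ± 0.29, and Zfand2a, an arsenite- and heat-inducible zinc finger gene, by -0.03 ± 0.26. The adjusted p from limma was at least 0.942 for each of these 7 genes. Such a p does not show that a gene did not change.

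The test of the difference between genotypes, the KO response minus the WT response over the joined times, gave 0 of 10625 genes at an adjusted p under 0.05 (0%, lowest adjusted p 0.540) and 889 at an unadjusted p under 0.05 (8.37%; 398 higher in KO, 3.75%, and 491 lower, 4.62%). Among chaperones 6 of 38 were lower and 0 higher at that unadjusted level. Dnajb1 differed by -1.63 ± 0.37 (SE; limma adjusted p = 0.540), the smallest p of all genes lower in KO. Hspa1b differed by -3.70 ± 1.05 and Hspa1a by -3.29 ± 1.14 (limma adjusted p = 0.578 and 0.581). Hspa2, Hspb1 and Hspa8 were the other 3, at -1.32, -1.33 and -0.65. The WT 0.5 h array, where WT Hspa1a had reached only 0.58, widens the spread of these genes: without it the differences were -4.82 for Hspa1a and -4.97 for Hspa1b, with a limma adjusted p of 0.000244 for both. Without the WT 2 h array they were -2.21 and -2.82 (limma adjusted p = 0.625 for both), and with any single array left out the adjusted p reached at most 0.803.

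Immediate early genes, the transcription factors and regulators that cells switch on without making new protein first, were measured for 38 of 50 listed genes. Their median stood higher on each later KO array, at 0.14, 0.41 and 0.87 at 0.5, 1 and 2 h, and lay at 0.05, 0.01 and -0.04 on the KO 0 h arrays. In WT cells the median was -0.04, 0.14 and 0.27. Over the joined times 33 of 38 lay above 0 with a median of 0.41, and 10 were higher and 0 lower at an unadjusted p under 0.05. Of all 10625 genes 4654 lay above 0, 2.34% were higher and 5.12% lower. Of 36 with all 6 values, 8 had heated KO arrays above all KO 0 h arrays and 0 had them below, against 4.49% and 8.95% of all genes. In 21 of 38 (55.3%) the KO values stood in rising order of the 3 times, against 1653 of 10388 genes in all (15.9%). At 2 h 17 of 38 (44.7%) were over 1, against 221 of 10388 (2.13%). The median leaned on the later times: it was 0.22 without the 2 h array, with 4 members higher at an unadjusted p under 0.05, and 0.65 without the 0.5 h array, with 16.

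Egr1, a zinc finger factor downstream of ERK and serum response factor, had 0.91, 2.34 and 3.16 in KO cells at 0.5, 1 and 2 h, and 0.25, 0.13 and -0.38 on the KO 0 h arrays. The groups did not overlap, and the mean difference was 2.14 ± 0.47 (SE; limma adjusted p = 0.315). In WT cells Egr1 had 0.25, 1.62 and 0.79. Id1, an inhibitor of basic helix-loop-helix factors, had 0.18, 1.56 and 1.97 in KO cells and 0.04, -0.01 and -0.03 on the KO 0 h arrays. It had -0.13, -0.08 and 0.39 in WT cells, so the heated values parted most at 1 and 2 h. Id2, its relative, had 0.35, 1.14 and 1.78 in KO cells, 0.28, -0.06 and -0.23 on the KO 0 h arrays, and -0.21, 0.14 and 0.50 in heated WT cells. All 3 genes stood higher at each later time in KO cells.

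Gadd45b and Gadd45g, stress sensors of the growth arrest family that bind the kinase MEKK4, had a similar course in KO cells. Gadd45b had 0.29, 1.08 and 1.98 in KO cells and 0.51, -0.24 and -0.26 on the KO 0 h arrays, so only the 1 and 2 h values cleared all 0 h arrays. In WT cells it had 0.64, 0.40 and 0.53. Gadd45g had -0.12, 1.21 and 1.75 in KO cells and 0.09, -0.12 and 0.03 on the KO 0 h arrays, against 0.55, 0.12 and 0.13 in heated WT cells. Gadd45a, the third member of the family, did not follow: it had -1.61, -1.12 and 0.10 in KO cells, against 1.89, 0.88 and 1.00 in WT cells.

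Fos and Myc, growth factor-responsive transcription factor genes, stood high at 2 h in both genotypes. Fos had 0.08, 1.05 and 1.58 in KO cells and -0.30, 0.52 and -0.21 on the KO 0 h arrays, and in WT cells 0.22, 1.06 and 1.48. Its responses differed between genotypes by -0.02 ± 0.51 (SE). Jun had 0.39, 1.07 and 1.34 in KO cells, but the KO 0 h arrays ranged from -0.86 to 0.77 and its 5 probes gave differences of -0.10 to 1.98. Myc had -0.24, 0.68 and 1.66 in KO cells, against -0.38, 0.30 and 1.12 in WT cells. Atf3, a stress-induced repressor, had 0.10, 0.58 and 1.10 in KO cells, against 0.24, 0.55 and 1.68 in WT cells. Its 4 probes disagreed, with differences of -0.02 to 1.32. Ier3, an anti-apoptotic early gene, had -0.05, 0.46 and 1.18 in KO cells, against 0.57, -0.20 and -0.62 in WT cells, and Ptgs2, the inducible cyclooxygenase, had -0.39, 0.72 and 1.23 in KO cells, against -0.07, 0.80 and 0.95. Klf6, a Krüppel-like factor, had 0.48, 0.23 and 0.79 in KO cells, while its relative Klf4 had 0.04, -0.20 and 0.33.

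**Figure D2:**
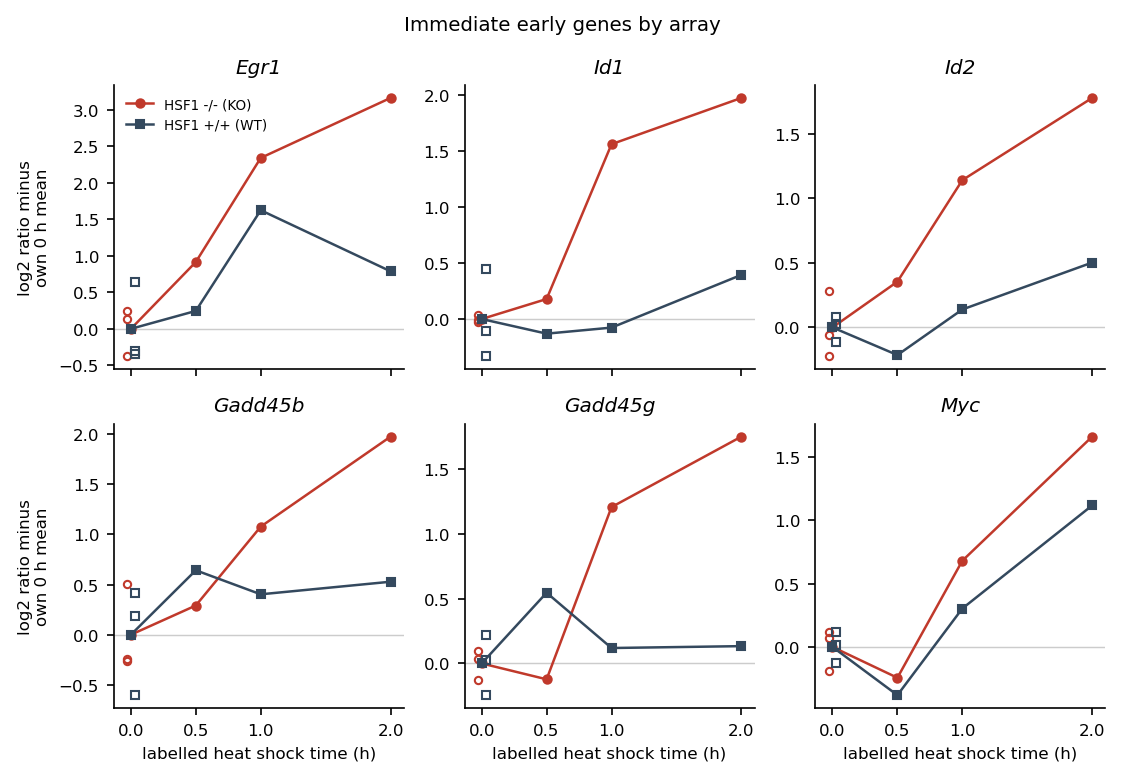
Log2 ratio to the pool minus the mean of the genotype's own 0 h arrays (vertical axis) against labelled heat shock time in hours, for 6 immediate early genes. Red circles are KO cells and dark squares WT cells, and open symbols are the single 0 h arrays. KO Egr1 climbs to 3.16 at 2 h, KO Id1 to 1.97 and KO Id2 to 1.78, while the WT values at 2 h are 0.79, 0.39 and 0.50.

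A slope over time is another description of such genes, and whether it fits them better than a window mean was not tested. It was fitted after the values were seen, so its calls are not separate support for a rise. The fit ran over the 6 KO arrays of 0 to 2 h, with the residual spread taken from all 20 arrays, WT and later arrays included. At an adjusted p under 0.05 it called 36 of 10625 genes (0.339%), 10 rising (0.0941%) and 26 falling (0.245%). Of the 10 rising genes 5 were immediate early genes: Egr1 at 1.68 ± 0.25 log2 units per hour (SE; limma adjusted p = 0.00858), Id1 at 1.07, Gadd45b at 1.00, Gadd45g at 0.93 and Id2 at 0.92. The other 5 were Ccl2 at 1.05, a monocyte chemokine, Hbegf at 0.86, an EGF receptor ligand, and Mettl5, Ncbp1 and Gm12758. These slopes lean on the last array: without the 2 h array, 1 of the 36 calls was kept, and Egr1 had a slope of 2.28 with a limma adjusted p of 0.0594. Of the 26 falling genes 17 had a single probe, and 0 were in any gene list used here.

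The difference of responses between KO and WT cells was tested gene by gene, and none of the 38 passed the adjusted threshold. The median difference of responses over the 38 genes was 0.26, with 27 above 0, and 3 (Id1, Id2 and Btg1) were higher and 0 lower in KO cells at an unadjusted p under 0.05, where 3.75% of all genes were higher and 4.62% lower. Id1 differed by 1.18 ± 0.48 (SE), Id2 by 0.95 ± 0.42 and Egr1 by 1.25 ± 0.66, and the limma adjusted p was over 0.05 for each. Without array centring the median was -0.01, while the median of all genes moved to -0.31 from -0.05.

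Targets of the integrated stress response, in which ATF4 answers a slowed translation initiation, were measured for 19 of 27 listed genes. The median by array was -0.05, 0.00 and 0.41 in KO cells at 0.5, 1 and 2 h, and 0.03, 0.05 and 0.10 in WT cells. In 10 of 19 (52.6%) the KO values stood in rising order of the times, against 1653 of 10388 genes in all (15.9%). Atf3 is a member of the immediate early list too, so the 2 lists are not separate. Ddit3, the pro-apoptotic factor CHOP, had -0.21, 0.49 and 1.77 in KO cells, against -1.02, -0.34 and 0.04 in WT cells. The WT 0 h arrays had 0.63, -0.84 and 0.20 for Ddit3. Its difference of responses over the joined times was 1.12 ± 0.67 (SE; limma adjusted p = 0.663). Atf4 itself had 0.79 ± 0.30 (SE) at 2 h, and Atf3 1.10 ± 0.26. Ddit3, Atf3 and Atf4 were the 3 members with an unadjusted p under 0.05 at 2 h, all higher, where 866 of 10577 genes had one (8.19%), 288 of them higher (2.72%). Cebpg, a partner of ATF4, had 0.79, 1.60 and 0.84 in KO cells, against -0.51, 0.24 and -0.07 in WT cells.

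The metallothioneins Mt1 and Mt2, metal-binding proteins induced through the metal factor MTF1, stood highest at 2 h in both genotypes. Mt2 had -0.39, 0.36 and 1.62 in KO cells, against 0.01, 0.65 and 2.24 in WT cells. Mt1 had 1.11 in KO cells and 0.91 in WT cells at 2 h. Its 4 probes disagreed, with differences of -0.49 to 0.91 in KO cells over the joined times. The difference of responses was -0.43 ± 0.67 (SE) for Mt2 and -0.07 ± 0.38 for Mt1, so no difference between genotypes was detectable with these arrays. Their probes may bind each other's transcripts.

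Among 35 of 46 interferon and inflammatory genes, 8 were higher and 2 lower in KO cells at 2 h at an unadjusted p under 0.05, against 2.72% and 5.46% of all genes. Over the joined times 2 were higher (Lif and Ccl2) and 3 lower (Tlr2, Cxcl12 and Irf7), against 2.34% and 5.12% of all genes. Ccl2 had 0.29, 0.71 and 2.19 in KO cells, and 0.21, -0.05 and -0.16 on the KO 0 h arrays. At 2 h it passed the test across all genes, at 2.19 ± 0.27 (SE; limma adjusted p = 0.0430), with 1.76 and 2.62 at its 2 probes. That call was kept in 3 of 10 other settings and was lost with any of the KO 0 h arrays left out (limma adjusted p of 0.129 to 0.192). In WT cells it had -0.27, -0.10 and 0.80, and its difference of responses over the joined times was 0.92 ± 0.55 (SE). The other 7 higher genes at 2 h were Tlr4 at 1.83, Cxcl1 at 1.88, Socs3 at 0.99, Il6 at 1.11, Ccl7 at 1.24, Cxcl5 at 0.87 and Irf9 at 0.62, and the 2 lower ones were Il1b at -2.30 and Oas1a at -0.76. Lif, a cytokine, had 0.68, 1.57 and 0.65 in KO cells. Macrophage markers, measured for 12 of 17 genes, had a median of -0.02 at 2 h with 0 higher and 0 lower at an unadjusted p under 0.05.

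Cytosolic ribosomal proteins, measured for 63 of 78 genes, lay above 0 in heated KO cells and below 0 in heated WT cells. The list's median was 0.18, 0.19 and 0.34 in KO cells at 0.5, 1 and 2 h, with 57, 60 and 61 of 63 above 0. The KO 0 h arrays had medians of 0.25, -0.10 and -0.18, with 62, 12 and 7 of 63 above 0, so the first 0 h array lay as high as the heated ones. In WT cells the medians were -0.20, -0.55 and -0.52 after heat, with 13, 1 and 1 of 63 above 0, and 0.03, -0.16 and 0.12 on the 0 h arrays. These genes thus shift together from array to array within 0 h too, and their counts are not independent.

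Within KO cells the joined contrast gave 5 ribosomal proteins higher and 0 lower at an unadjusted p under 0.05, against 2.34% and 5.12% of all genes, with a median of 0.24. Rps12, of the small subunit, differed by 0.53 ± 0.21 (SE), Rps23 by 0.49 ± 0.21 and Rpl34, of the large subunit, by 0.48 ± 0.21. The difference of responses was above 0 in 63 of 63, with a median of 0.66 and 42 higher at an unadjusted p under 0.05, against 3.75% of all genes. Rps23 had 0.35, 0.51 and 0.61 in KO cells, against -0.48, -0.76 and -0.70 in WT cells, and differed by 1.14 ± 0.30 (SE), short of the adjusted threshold. The count was 17 without array centring (median 0.39, with all genes at -0.31), 30 with quantile normalization and 28 with scaling of array width. Respiratory chain genes, measured for 71 of 87, had a median difference of responses of 0.37 with 19 higher and 0 lower. Over other settings this median ranged from 0.10 to 0.49. Within KO cells the list's median was 0.09, with 3 higher and 2 lower, and within WT cells -0.29, with 0 higher and 21 lower. Within WT cells 518 of all 10625 genes were higher and 684 lower at an unadjusted p under 0.05. By KO array the list's median was 0.13, 0.02 and 0.16 at 0.5, 1 and 2 h, and 0.23, -0.11 and -0.13 on the 0 h arrays. Ndufab1, a complex I subunit and acyl carrier, had 0.04, 0.74 and 0.87 in KO cells, against -0.62, -0.43 and -0.42 in WT cells.

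**Figure D3:**
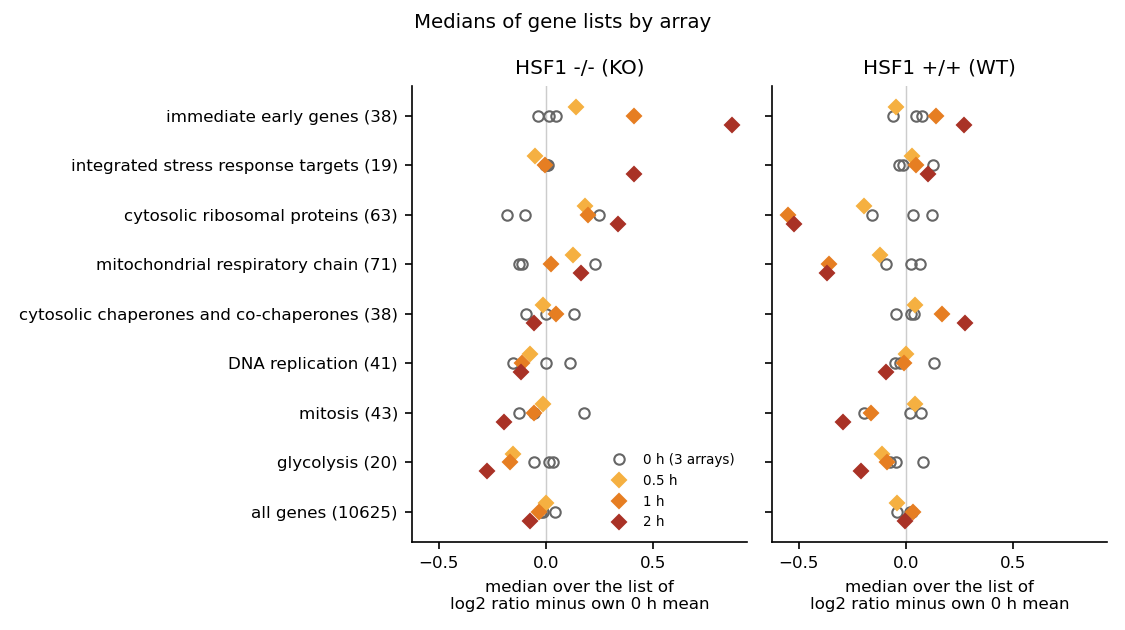
Median over each gene list of the log2 ratio minus the genotype's own 0 h mean (horizontal axis), 1 symbol per array, with KO cells left and WT cells right. Open circles are the 0 h arrays and filled diamonds 0.5, 1 and 2 h. Numbers in brackets are measured genes. Immediate early genes reach 0.87 in KO cells at 2 h, and ribosomal proteins lie at 0.34 in KO cells and at -0.52 in WT cells at that time.

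Genes that lay lower in heated KO cells included parts of DNA replication. Of 41 measured of 49, 7 were lower and 1 higher at an unadjusted p under 0.05, against 5.12% and 2.34% of all genes. Of 38 with all 6 values, 8 lay below all KO 0 h arrays and 1 above, against 8.95% and 4.49%. The list's median was -0.06, close to the -0.05 of all genes. Rrm1, the large subunit of ribonucleotide reductase, had -0.87, -1.01 and -1.48 in KO cells, -0.05, 0.63 and -0.58 on the KO 0 h arrays, and 0.31, 0.36 and -0.00 in heated WT cells. It differed by -1.12 ± 0.25 in KO cells (SE; limma adjusted p = 0.315), and the 2 probes gave -1.84 and -0.40. Its difference of responses was -1.34 ± 0.35 (SE). Ccne1, cyclin E, differed by -0.70 ± 0.22. Mcm4, of the replicative helicase, differed by -3.88 ± 1.27, but had no value at 1 h and 0 h values of -1.79 and 1.79. The other 4 lower genes were Pola2, Pole, Pole2 and Mcm5, and the higher one was the licensing factor Cdt1 at 0.57.

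Mitosis genes, 43 of 46 measured, had a median of -0.12, with 2 lower at an unadjusted p under 0.05, Mki67 at -0.86 ± 0.35 and Knstrn at -0.55 ± 0.21 (SE), a share no higher than the 5.12% of all genes. Glycolysis genes, 20 of 22 measured, had a median of -0.15 with 3 above 0, and at an unadjusted p under 0.05 2 were lower (Slc2a1 and Gapdh) and 1 higher, Aldoc at 0.38 ± 0.17 (SE). Slc2a1, the glucose transporter GLUT1, had -0.74, -0.32 and -0.63 in KO cells, against -0.89, -0.29 and -0.49 in WT cells. Gapdh had -0.44, -0.32 and -0.38 in KO cells and 0.12, -0.26 and 0.13 on the KO 0 h arrays. Clk1, a kinase of splicing factors, had -0.57, -0.60 and -1.03 in KO cells and 0.13, 0.33 and -0.46 on the KO 0 h arrays. It differed by -0.73 ± 0.23, with probes that ranged from -2.15 to 0.13. The cold-inducible Rbm3 had 0.17, 0.17 and -0.11 in KO cells, against -0.22, -0.56 and -0.76 in WT cells.

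The 10 genes of smallest p in each direction over the joined times had adjusted p of 0.247 to 0.471, so none passed. The smallest belonged to Pomk, a kinase of dystroglycan glycosylation, with -0.88, -1.47 and -1.33 in KO cells and -0.06, 0.10 and -0.04 on the KO 0 h arrays. It differed by -1.22 ± 0.21 (SE; limma adjusted p = 0.247). Ddx17, an RNA helicase, had -0.75, -1.22 and -1.18 in KO cells, against 0.05, 0.49 and -0.55 on the KO 0 h arrays. Its 4 probes were all lower, at -2.70 to -0.30. Ercc6l2, Izumo1r, Usp11, Ip6k2, Wipf2, Sp5 and Pln were lower by a mean of -0.88 to -2.06. The 4 probes of Pln spanned -4.28 to 0.60, and 1 of them alone gave 0.60. On the higher side, 0610012G03Rik had 1.12, 1.12 and 0.81 in KO cells and -0.06, -0.02 and 0.08 on the KO 0 h arrays. Nuak2, a stress-responsive kinase of the AMPK family, had 0.79, 2.31 and 1.39 in KO cells, against -1.20, 0.51 and -0.34 in WT cells. Map2k3os, Foxq1, Bpifb1, Rgmb and Cyp2c23 were the others beside Egr1, Id1 and Id2, at 0.68 to 1.68.

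**Figure D4:**
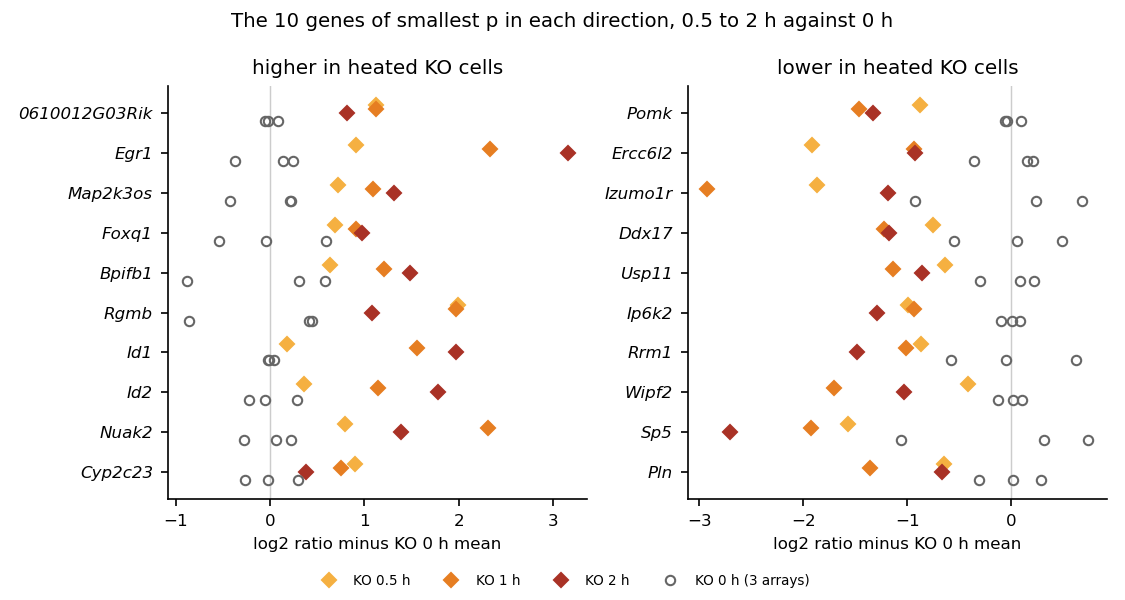
Log2 ratio minus the KO 0 h mean (horizontal axis) for the 10 genes of smallest p in each direction, higher in heated KO cells on the left and lower on the right. Filled diamonds are KO cells at 0.5, 1 and 2 h and open circles the 3 KO 0 h arrays. Pomk lies at -0.88, -1.47 and -1.33 after heat, and Egr1 at 0.91, 2.34 and 3.16.

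Each time by itself gave few calls, and most rested on single probes. Here 1 array is set against 3, and its spread is assumed to be that of the 0 h arrays. At an adjusted p under 0.05 (limma), 7 genes were called at 0.5 h (0.0661%), 21 at 1 h (0.201%) and 23 at 2 h (0.217%). At 0.5 h 1 was higher (0.00944%) and 6 lower (0.0566%), at 1 h 6 were higher (0.0573%) and 15 lower (0.143%), and at 2 h 5 were higher (0.0473%) and 18 lower (0.17%). These 51 calls were of 49 genes, and Mypop and B3galt5 were called at 2 times. A single probe carried 38 of the 51 calls (74.5%), against 48.8% of all tested genes. Of the 13 calls with at least 2 probes, 10 had every probe on the same side.

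At 0.5 h no call had several probes on the same side. At 1 h Antkmt, a mitochondrial lysine methyltransferase, fell by 1.93, with -2.39 and -1.47 at its 2 probes. The other calls at 1 h with all probes on the same side had a strong and a weak probe: Pdia5, an ER disulphide isomerase, at 3.26 had probes at 0.14 and 6.38, Eif3k, an initiation factor subunit, at 3.22 had 0.07 and 6.36, and Chmp6, Dsp and Srpk2 at -3.12, -2.80 and -2.59 had their weaker probes at -0.70, -0.26 and -0.14. At 2 h Ccl2 rose as given above, and Nrep, a neuronal regeneration related gene, fell by 2.11 (limma adjusted p = 0.0382) with -3.08 and -1.14 at its probes. Mettl5, a ribosomal RNA methyltransferase, stood at 5.09 with probes at 1.80 and 8.91, and Sgo1, shugoshin, at -3.30 with -6.55 and -0.06. Of these 10 calls, those of Antkmt, Ccl2, Nrep and Mettl5 had every probe beyond 1 in size. With a KO 0 h array left out, the calls of Antkmt (limma adjusted p of 0.131 to 0.216) and Nrep (0.129 to 0.191) were lost each time, as was that of Ccl2. Mettl5 was kept in 1 such case, with 0.0427 to 0.0829.

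The immediate early genes stood out at single times without any of them passing the adjusted test. At an unadjusted p under 0.05, 0 of 38 were higher at 0.5 h (0.85% of all genes), 6 at 1 h (2.11%) and 19 at 2 h (2.72%), with 0 lower at each time (2.15%, 4.32% and 5.46% of all genes). At 2 h Egr1 had 3.16 ± 0.46 (SE; limma adjusted p = 0.0762), Myc 1.66 ± 0.26 and Gadd45g 1.75 ± 0.27 (0.0908 for both), and Id1 1.97 ± 0.33 (0.108). The 5 smallest p of the difference of responses on the higher side were instead of genes flat in KO cells: Tceal9 had 0.26, 0.17 and 0.32 in KO cells, against -1.13, -1.17 and -1.24 in WT cells, and Zdhhc16 0.15, 0.20 and -0.21 against -1.31, -1.63 and -1.47. Cib1, Fcgr1 and Midn were the other 3, at 2.14, 1.63 and 1.42. On the lower side Dnajb1 was followed by Rdh5, Nxf2, Sp5 and Kif14, at -1.01, -1.42, -2.71 and -1.34.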

How the data were processed

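The deposited values, treated here as log2, were log ratios made by the authors, 1 per probe and array. Background correction, spot filters, within-array normalization and the log base are not given in the sources used here. Per the labels, Cy5 held the sample and Cy3 the pool. The table held 42624 probes and 3.28% of values were missing. Each array had 39037 to 42220 values and a median between -0.53 and -0.18. Across probes, r between arrays was 0.423 to 0.805.

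The platform table named 1 gene for 21701 probes, several for 1124 and none for 19799. Only the first were used, of which 21650 identifiers matched the mouse annotation and changed 0 symbols. Arrays were centred on their medians. Probes needed at least 2 values in each of 6 groups (KO and WT at 0 h, 0.5 to 2 h and 3 to 8 h), which kept 40453. The probes of a gene, each relative to its own mean, were averaged to 10625 genes, 5182 with 1 probe.

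With limma 3.58.1 (R 4.3.3), lmFit and eBayes were fitted to all 20 arrays with 6 group means (residual df 14, prior df 3.36), and for single times with 1 mean per genotype and time (residual df 4). The two-sided p-values were adjusted over all genes (Benjamini-Hochberg), with a threshold of 0.05. The step was tested on simulated data. Other normalizations, filters, probe summaries, moderation and arrays left out were tried, and the slope over 0 to 2 h was added after the data were seen. Precision is set by how few arrays there are. Missing values were not imputed.

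Members, lists and genes were chosen with earlier results of these data known. The 34 lists hold 1085 genes, 861 of them measured, and were described by counts and medians, with no test. Named genes were a fixed set of stress genes, the 10 smallest p per direction over the joined times, the 5 largest calls per direction at single times with several probes on the same side, the 5 smallest p per direction in the difference of responses, and the leading genes of each list by p, 3 at most. Others were chosen after their values were seen, as examples of a list or beside small counts. Hsf1, Hsf2, Hsp90ab1, Junb, Dusp1, Ubb, Cirbp, Per1 and Per2 were not analysed here. Promoters came from RefSeq, GRCm38.p6.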

Additional observations from a re-analysis of the deposited data

Results flagged for a closer look

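Probes for which the platform table gives no single gene stood outside the gene comparisons. Some of them passed the limma test at an adjusted p under 0.05 when tested apart from the named genes. That test took in 19572 probes over the joined times and in the difference of responses. At 0.5, 1 and 2 h it took in 19402, 19124 and 19369. Each was tested as a single probe, while the named genes were means over their probes. Over the joined times 1 passed (0.00511%), lower in heated KO cells. At 0.5 h 17 passed (0.0876%), 0 higher and 17 lower. At 1 h 15 passed (0.0784%), 3 higher and 12 lower. At 2 h 86 passed (0.444%), 37 higher and 49 lower, against 0.217% of named genes at that time. In the difference of responses 1 passed (0.00511%), lower in KO cells. The single heated array behind each single-time call had no replicate.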

How the results depend on the processing

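The count of genes past the threshold moved as follows, where the cause was not tested. Over the joined times, 0 genes became 1 (Hdac9) with a filter of at least 1 value per group and 5 with 1 mean per genotype and time (4933432K03Rik, Derl3, Klk10, Krtap6-2 and Mypop). Leaving out 1 array gave 0 to 6, the 6 without the 0.5 h array being Asxl1, B3galt5, Egr1, Id1, Pomk and Wipf2. At 0.5 h, 7 became 3 without centring, 16 with scaling of array width and 11 with probes measured on all arrays, and 0 to 0 with a 0 h array left out. At 1 h, 21 became 10 to 14 with a 0 h array left out. At 2 h, 23 became 11 with quantile normalization, 10 with scaling, 35 with probes measured on all arrays, 13 with at least 1 value per group and 1 to 4 with a 0 h array left out. In the difference of responses, 0 became 1 with probes measured on all arrays, 1 with at least 1 value per group, 4 with 1 mean per genotype and time (Hspa1a and Hspa1b among them, adjusted p 0.0230) and 0 to 10 with 1 array left out, 10 without the second WT 0 h array. The replicate block, which joins KO and WT arrays of a number or time, gave 0 (839 at an unadjusted p under 0.05). Across genes, the deviations of such arrays from their group means had r of -0.012 to 0.044. The groups are small and the heated arrays also differ in time, so whether paired arrays shared a culture or batch was not tested. The 36 slope calls became 71 without centring, 22 with quantile normalization, 5 with scaling and 23 to 62 with 1 array left out.

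The sign of the joined difference turned for the genes named here, most of them near 0, with Pln, Atf3, Mt2 and Klf6 as exceptions. Without centring, Hsph1 was at -0.057, Hspa5 at -0.026, Klf4 at -0.023 and Rbm3 at -0.0034. Quantile normalization put Hspb1 at 0.22 and Hmox1 at 0.0012, and scaling put Hspa5 at -0.041. With 1 probe per gene, Dnajb1 was at -0.20, Hspe1 at -0.43, Atf3 at -0.0195, Pln at 0.60, Hspa5 at -0.035, Klf4 at -0.25 and Rbm3 at -0.0038. With probes on all arrays, Dnajb1 was at -0.0195 and Hsph1 at -0.063. With at least 1 value per group, Klf6 was at -0.039. With 1 array left out, the sign turned within these ranges: Mt2 -0.014 to 0.99, Klf4 -0.081 to 0.18, Hmox1 -0.098 to 0.036, Hsph1 -0.11 to 0.10, Hspb1 -0.35 to 0.046, Zfand2a -0.14 to 0.072, Hspe1 -0.15 to 0.27, Hspa5 -0.050 to 0.17, Rbm3 -0.039 to 0.20 and Cryab -0.10 to 0.058. Of the other gene results, 756 under other settings and 557 with 1 array left out kept direction and side of the threshold. Without centring the median of all genes moved to -0.12 over the joined times, -0.23 at 2 h and -0.31 in the difference of responses. Signal over background was not examined, and only 0 h was repeated, so a single heated array has no replicate of its own.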

Other observations

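Other protein quality control lists were measured in heated KO cells. CCT chaperonin and prefoldin genes, 15 of 16 measured, had a median of 0.15, with 0 higher and 0 lower at an unadjusted p under 0.05. Of the 15, 3 lay above all KO 0 h arrays and 0 below, against 4.49% and 8.95% of all genes. Vbp1, a prefoldin subunit, had 0.24, 0.44 and 0.39 at 0.5, 1 and 2 h, and 0.64, -0.76 and 0.12 on the KO 0 h arrays. Proteasome subunits, 37 of 41, had a median of 0.01 and ubiquitin and p97 genes, 28 of 40, of -0.00, with 0 higher and 0 lower in either list at an unadjusted p under 0.05. ER chaperones and unfolded protein response genes, 31 of 33, had a median of 0.06, with 2 higher (Derl3 and Selenos) and 0 lower at an unadjusted p under 0.05. At 1 h 2 of the 31 passed the adjusted test, Derl3 (limma adjusted p = 0.000101) and Pdia5 (0.0223), against 0.201% of all genes. Selenos, of ER-associated degradation, had 0.29, 0.41 and 0.60, against -0.44, -0.20 and 0.00 in WT cells. Derl3, of the same pathway, had 0.64, 7.38 and 0.27 at its 1 probe. Mitochondrial chaperones and proteases, 15 of 17, had a median of 0.01, with 0 higher and 2 lower at an unadjusted p under 0.05, Spg7 at -0.51 and Clpx at -0.61. Over the joined times 2.34% of all genes were higher and 5.12% lower at that level, which is the background for each of these lists.

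Extracellular matrix genes, 53 of 56, had a median of -0.02, with 1 higher (Loxl2) and 4 lower (Sparcl1, Col8a1, Nid1 and Col14a1) over the joined times and 1 higher and 6 lower at 2 h, at an unadjusted p under 0.05. Of all genes 2.34% were higher and 5.12% lower over the joined times, and 2.72% and 5.46% at 2 h. Loxl2, a lysyl oxidase of collagen crosslinks, had 0.35, 1.51 and 2.09 in KO cells, 0.50, -0.29 and -0.21 on the KO 0 h arrays, and -0.33, 1.08 and 1.59 in heated WT cells. Myl12b, a myosin light chain, had 0.45, 0.44 and 0.64 in KO cells, against -0.23, -0.58 and -0.60 in WT cells, with a difference of responses of 0.98 ± 0.27 (SE). Msmo1, of cholesterol synthesis, had 0.05, 1.23 and 1.08 in KO cells, against -0.17, -0.46 and -0.50 in WT cells. Ccng1, cyclin G and a p53 target, had -0.34, -0.48 and -0.55 in KO cells and 0.14, -0.18 and 0.04 on the KO 0 h arrays. None of these passed the test across all genes over the joined times.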
